A study of Arabidopsis thaliana with 22 samples.

Results

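The genes described here are 10 Arabidopsis thaliana loci of iron uptake and storage, chosen as a list of loci: FIT (AT2G28160), bHLH38 (AT3G56970), bHLH39 (AT3G56980), PYE (AT3G47640), BTS (AT3G18290), MYB72 (AT1G56160), IRT1 (AT4G19690), FRO2 (AT1G01580), AHA2 (AT4G30190) and FER1 (AT5G01600). All 10 were on the array, as 12 of its 31524 transcript models, since IRT1 and AHA2 have 2 models each. The table holds 27143 loci in all.

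Arabidopsis roots take up iron by acidifying the soil, reducing ferric iron at the cell surface and importing the ferrous ion. FIT, a bHLH transcription factor, pairs with bHLH38 or bHLH39 and turns on IRT1, the main ferrous iron importer of the root, and FRO2, the ferric chelate reductase, while the proton pump AHA2 drives the acidification. PYE is a bHLH repressor of iron homeostasis genes, BTS is an E3 ubiquitin ligase that restrains the iron deficiency response, MYB72 is needed for the secretion of iron-mobilising coumarins, and FER1 is a plastid ferritin whose transcript is known to accumulate when iron is plentiful. In roots, FIT, IRT1 and FRO2 are known from the epidermis of iron-deficient plants.

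RNA was measured on 22 one-colour NimbleGen arrays, with 2 or 3 arrays in each of 8 groups that combine 2 genotypes, 2 sorted cell types and 2 treatments. The genotypes were wild-type Col0 and the mutant atscl26 (allele atscl26-2 in the authors' table of averages), and seedlings of both carried a GFP reporter that marks epidermal or cortical root cells. The reporter lines are not named in the labels. Seedlings had grown for 9 days on medium with 0.1 mM KNO3 and 30 mM sucrose in the protocol, against an age of 12 days in the source names, and the nitrate groups then received 5 mM KNO3 for 2 h. The control is 5 mM KCl in the source names but fresh 0.1 mM KNO3 plates in the protocol, and is called KCl here, as in the sample titles. Every group went through protoplasting and fluorescence sorting, RNA amplification and Cy3 labelling. The submitters made 24 arrays and removed 2 for low quality, so that atscl26 epidermis KCl and Col0 cortex KNO3 have n = 2 and the other groups n = 3. No iron treatment is named in the labels. By its title, the series is about SCL26, a GRAS transcription factor, and the crosstalk of gibberellin with nitrogen in shaping the root.

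Some arrays went against their labels or stood apart. Only some of the differences in epidermis and between cell types below are also given without 1 or both sets of such arrays. The SCL26 transcript, at a median log2 level of 7.94 in the 11 arrays labelled Col0 and 8.30 in the 11 labelled atscl26, was no lower under the mutant label. The range of the atscl26 arrays, 7.66 to 9.11, lay inside that of the Col0 arrays, and which part of the gene its probes cover is not given in the sources used here. Every genotype difference below is therefore one between arrays labelled atscl26 and arrays labelled Col0. The median correlation of an array with the other 21 was 0.852 to 0.921 in 18 arrays and lower in 4: 0.562 in Col0 epidermis KCl replicate 2, 0.681 in Col0 cortex KNO3 replicate 1, 0.772 in atscl26 cortex KNO3 replicate 1 and 0.800 in Col0 epidermis KNO3 replicate 3. A marker score, the mean of 16 epidermis markers minus that of 3 cortex markers, placed 7 arrays nearer the other cell type than their own label. They are Col0 epidermis KCl replicates 1 and 2, atscl26 epidermis KNO3 replicates 2 and 3, atscl26 cortex KCl replicate 3 and atscl26 cortex KNO3 replicates 2 and 3. In the authors' deposited table of group averages, 6 of 8 averages equalled the mean of the labelled arrays. The other 2 did not: Col0 epidermis KCl equalled the mean of its replicates 1 and 3 and atscl26 epidermis KNO3 replicate 1, and Col0 cortex KNO3 equalled the mean of its 2 arrays and atscl26 cortex KCl replicate 1. The groups were kept as labelled.

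Of the 12 iron models, 0 passed an adjusted p of 0.05 in any of 18 comparisons fitted with limma (4 nitrate effects, 4 genotype effects, 4 cell type effects, the average of each, and 3 interactions). Of all 31524 models, 0% passed in 17 of these comparisons, and 0.00317%, a single model, passed in the average cell type effect. The text below therefore gives levels and differences without calling any of them a change. Levels are log2 expression values and differences are log2 differences ± SE. Levels of different genes are not compared, because their probes differ. In sorted bulk samples, fewer cells of a type and less RNA per cell cannot be told apart.

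**Figure D1:**
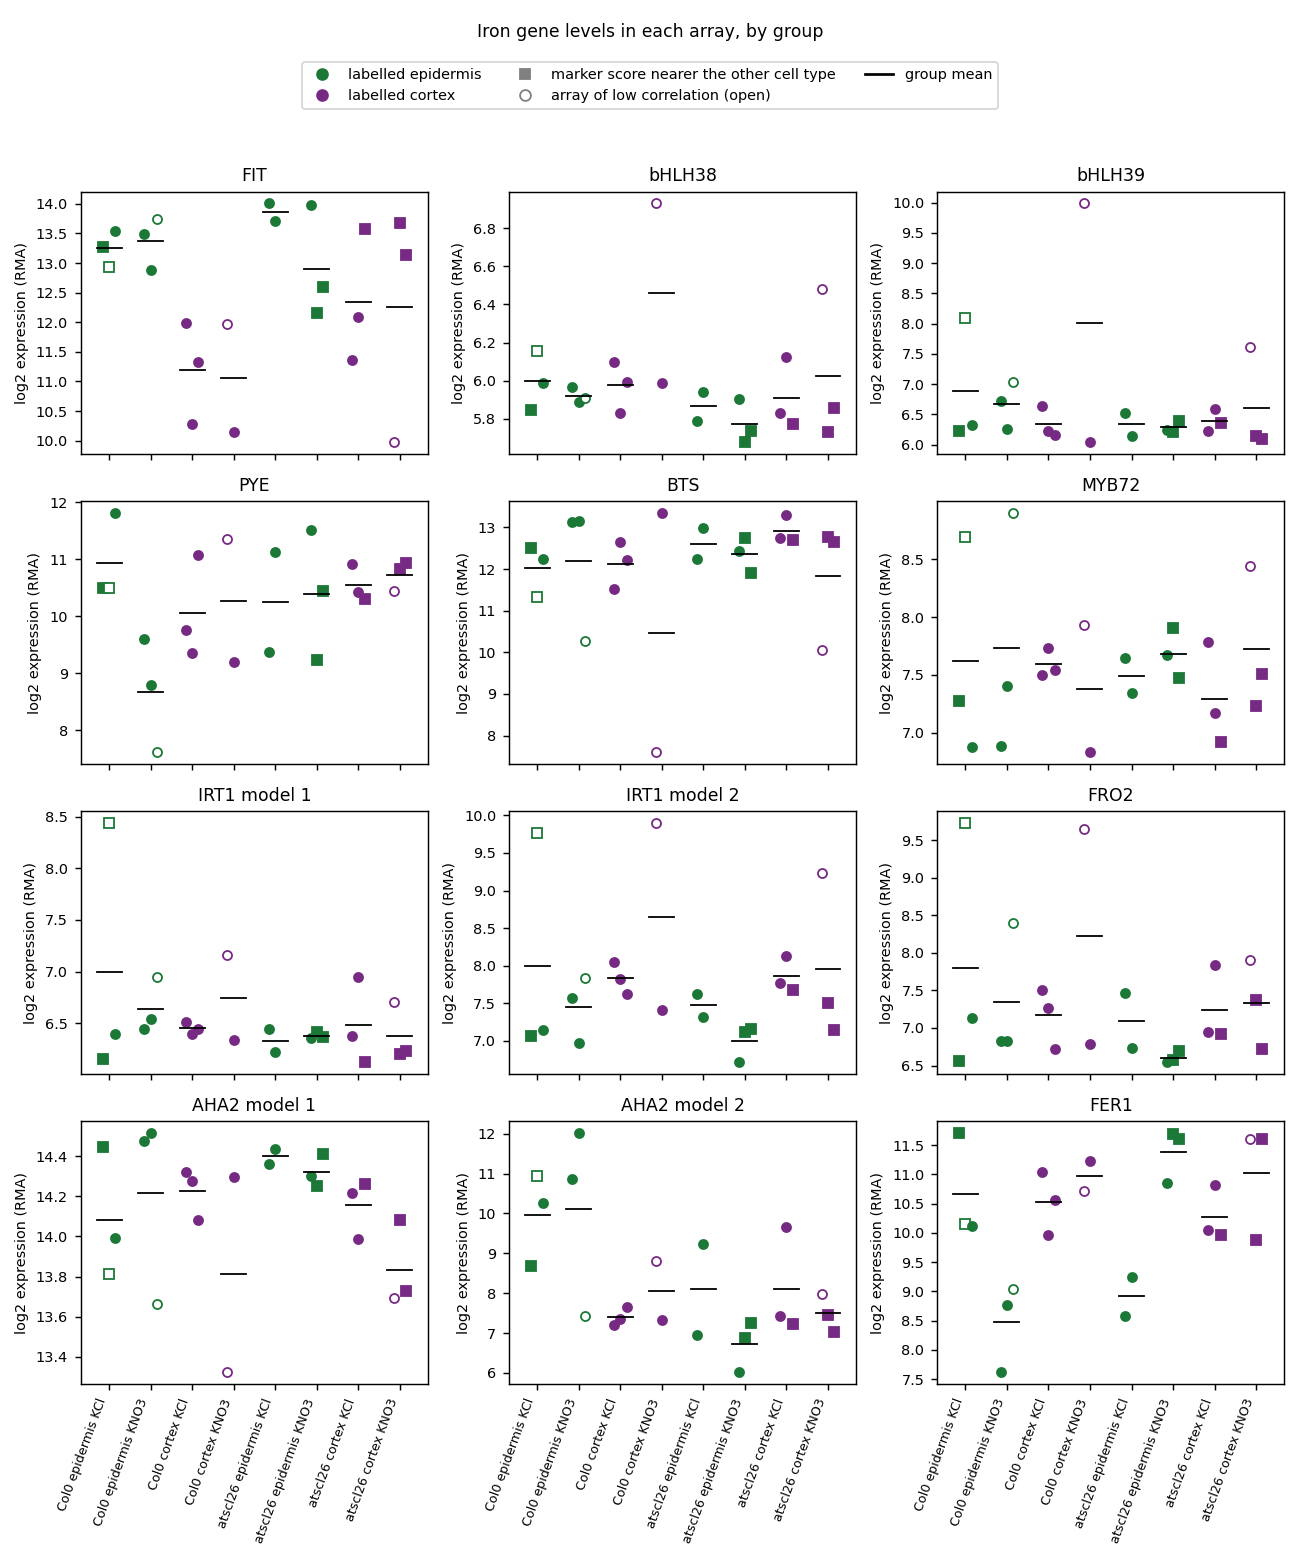
Each panel shows 1 transcript model, with a point for each of the 22 arrays (y axis, log2 expression value from RMA) in the 8 groups (x axis); lines are group means, squares are arrays whose marker score is nearer the other cell type, and open symbols are the 4 arrays of low correlation. FIT has 8 of its 11 cortex points at or below 12.09 and FER1 has its 2 nitrate groups of epidermis on opposite sides of their controls, while IRT1, FRO2, bHLH39 and BTS stand apart mainly in the open symbols.

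Among the regulators, FIT carried the clearest cell type difference. In the epidermis its levels were 13.28, 12.93 and 13.54 in Col0 KCl, 13.49, 12.89 and 13.75 in Col0 KNO3, 14.01 and 13.70 in atscl26 KCl, and 13.98, 12.15 and 12.59 in atscl26 KNO3. In the cortex they were 11.99, 10.28 and 11.33 in Col0 KCl, 11.96 and 10.14 in Col0 KNO3, 11.36, 12.09 and 13.58 in atscl26 KCl, and 9.97, 13.68 and 13.13 in atscl26 KNO3. All 11 epidermis arrays lay at 12.15 or above, and 8 of the 11 cortex arrays lay at 12.09 or below. How many of all models separate the arrays to this degree was not counted. The 3 cortex arrays that overlapped the epidermis, at 13.13 to 13.68, were the 3 whose marker score was nearer the epidermis. The one at 13.68, atscl26 cortex KNO3 replicate 2, had a score of -0.145, close to the midpoint of -0.308 that divides the scores.

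Ordered by group mean, FIT stood at 13.85 ± 0.21 (SD, n = 2) in atscl26 epidermis KCl, 13.38 ± 0.44 (n = 3) in Col0 epidermis KNO3, 13.25 ± 0.31 (n = 3) in Col0 epidermis KCl and 12.91 ± 0.96 (n = 3) in atscl26 epidermis KNO3. The cortex groups followed at 12.34 ± 1.13 (n = 3) in atscl26 KCl, 12.26 ± 2.00 (n = 3) in atscl26 KNO3, 11.20 ± 0.86 (n = 3) in Col0 KCl and 11.05 ± 1.29 (n = 2) in Col0 KNO3. Neighbours in this order differed by less than the larger of their SDs, except between atscl26 epidermis KCl and Col0 epidermis KNO3, where the step of the means was also within the limma SE of a difference between groups. Epidermis therefore held the 4 highest group means and cortex the 4 lowest.

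Averaged over genotype and treatment, FIT was 1.63 ± 0.44 higher in epidermis than in cortex, a 3.10-fold ratio (limma adjusted p = 0.777), which places it 47th by p among 31524 models. The difference was 2.05 ± 0.83 in Col0 KCl (adjusted p = 0.845), 2.32 ± 0.92 in Col0 KNO3 (adjusted p = 0.550), 1.51 in atscl26 KCl and 0.65 in atscl26 KNO3. All 4 had the same sign, and leaving out any single array kept the average between 1.35 and 1.86. Without the 7 arrays nearer the other cell type, the average was 2.70 ± 0.41 with a limma adjusted p of 0.00971, in a fit where 2.33% of all models passed. Those arrays were picked by epidermis and cortex markers, so the larger difference is not independent of a gene with an epidermal pattern. Over the other alternative fits of this difference, the adjusted p ran from 0.176 to 0.840.

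As a description only, since epidermis and cortex markers chose the arrays, FIT is also given by label and marker score. In the 6 epidermis arrays of matching score and ordinary correlation, FIT lay between 12.89 and 14.01 (mean 13.60). In the 6 such cortex arrays it lay between 10.14 and 12.09 (mean 11.20). In the 3 epidermis arrays with a score on the cortex side and ordinary correlation, it lay between 12.15 and 13.28. The epidermis markers were divided: 6 of 6 non-hair markers had a higher average in epidermis (median difference 0.43), but 4 of 10 root hair markers were higher and 6 lower (median -0.27), beside a median of -0.08 over all models. Cortex markers were lower in 3 of 3 (median -0.43), and 0 markers of these lists passed. The mean level of the non-hair markers was 10.96 to 11.23 in the 3 cortex arrays with high FIT. It was 10.47 in atscl26 cortex KNO3 replicate 1, which had the lowest FIT of the series (9.97). The part of these cells in the FIT difference was not tested.

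**Figure D2:**
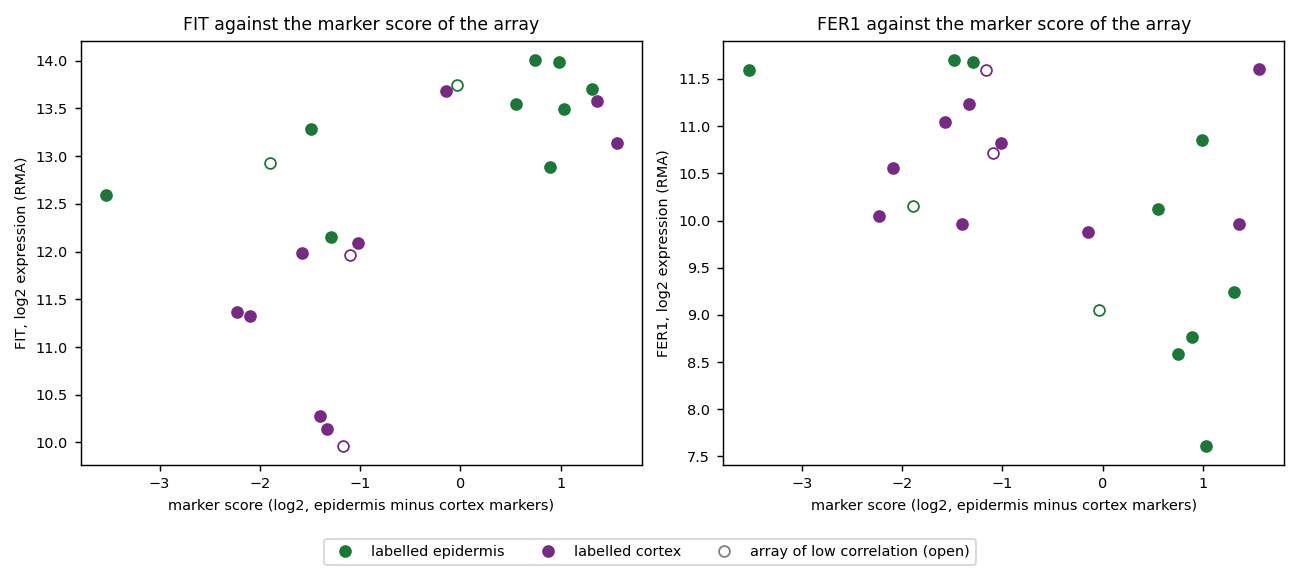
The marker score of each array (x axis, mean log2 level of 16 epidermis markers minus 3 cortex markers) is set against FIT (left) and FER1 (right) on the y axis (log2 expression value from RMA); colours give the labelled cell type and open points the arrays of low correlation. FIT lies at 13.13 to 13.68 in the 3 cortex-labelled arrays with a score above the midpoint of -0.308. FER1 lies at 11.60 to 11.70 in 3 of the 4 epidermis-labelled arrays with a score below it.

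No nitrate or genotype difference of FIT passed. The nitrate difference (KNO3 minus KCl) was 0.13 in Col0 epidermis, -0.14 in Col0 cortex, -0.95 in atscl26 epidermis and -0.08 in atscl26 cortex. The average genotype difference was 0.62, with a 95% interval that covered 0.

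bHLH38 and bHLH39, the partners of FIT, are neighbouring genes with no gene between them in the reference annotation, and as close paralogues they could share probe signal. Both had mean levels in the dimmest 25% of all models. bHLH38 lay between 5.68 and 6.93 over all arrays. bHLH39 lay between 6.04 and 6.73 in the 18 arrays of ordinary correlation and at 8.09, 7.04, 9.98 and 7.61 in the 4 arrays of low correlation. No bHLH39 value of the first set reached the second. The share of all models that set these 4 arrays apart was not counted, here or for BTS, MYB72 and FRO2 below. When Col0 cortex KNO3 replicate 2 was left out, so that the group was represented by its array of low correlation alone, bHLH39 passed for the nitrate effect in Col0 cortex (3.64, limma adjusted p = 0.00959), the genotype effect in cortex KNO3 (-3.37, adjusted p = 0.0176) and the cell type effect in Col0 KNO3 (-3.31, adjusted p = 0.0176). In these fits 2.8%, 2.09% and 2.62% of all models passed. The differences of bHLH38 were between -0.54 and 0.48 in the 12 comparisons within a genotype, cell type or treatment.

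PYE was lowest in Col0 epidermis under nitrate. It stood at 10.49, 10.49 and 11.80 in Col0 epidermis KCl and at 9.60, 8.80 and 7.61 in Col0 epidermis KNO3. In atscl26 epidermis it stood at 9.37 and 11.13 under KCl and at 11.51, 9.23 and 10.44 under KNO3. In the cortex it ranged from 9.20 to 11.35. The nitrate difference in Col0 epidermis was -2.26 ± 0.71 (limma adjusted p = 0.909) and the genotype difference in epidermis under KNO3 was 1.72 ± 0.71 (adjusted p = 0.933). Without the 4 arrays of low correlation, 1 of which held the lowest value, the nitrate difference was -1.95 and the genotype difference 1.19. Without the 7 arrays nearer the other cell type, which leaves 1 array in Col0 epidermis KCl and 1 in atscl26 epidermis KNO3, they were -3.13 ± 1.08 (adjusted p = 0.876) and 2.84 ± 1.08 (adjusted p = 0.9997). Markers of inner tissues had lower means beside PYE under nitrate in Col0 epidermis: cortex in 3 of 3 models (median difference -1.81), endodermis in 11 of 11 (-1.09) and stele, where PYE is best known, in 6 of 8 (-0.77). Root hair markers were lower in 7 of 10 (-0.62) and non-hair markers in 3 of 6 (0.04). Their part was not tested.

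BTS was lowest in the 4 arrays of low correlation. It lay between 11.51 and 13.33 in the 18 arrays of ordinary correlation, with a median of 12.67. In the 4 others it stood at 11.32 in Col0 epidermis KCl replicate 2, 10.28 in Col0 epidermis KNO3 replicate 3, 7.60 in Col0 cortex KNO3 replicate 1 and 10.06 in atscl26 cortex KNO3 replicate 1. The residual SD of BTS was 1.44 over all arrays and 0.40 without those 4, beside a median over all models of 0.87 and 0.56. Its average differences were 0.46 between cell types, 0.73 between genotypes and -0.71 between treatments, each with a 95% interval that covered 0. BTS passed in the same fits without Col0 cortex KNO3 replicate 2, at -4.52, 4.23 and 4.59 (limma adjusted p = 0.0319, 0.0494 and 0.0316).

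MYB72 lay between 6.83 and 7.90 in the 18 arrays and at 8.70, 8.90, 7.93 and 8.44 in the 4 of low correlation. Its differences in the 12 comparisons within a genotype, cell type or treatment were between -0.30 and 0.43.

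The uptake genes IRT1 and FRO2 showed no difference between groups as large as the one between arrays of ordinary and of low correlation. FRO2 lay between 6.54 and 7.84 in the 18 arrays and stood at 9.72 in Col0 epidermis KCl replicate 2, 8.40 in Col0 epidermis KNO3 replicate 3, 9.65 in Col0 cortex KNO3 replicate 1 and 7.91 in atscl26 cortex KNO3 replicate 1. IRT1 model 1 lay between 6.12 and 6.95 in the 18 arrays and at 8.44, 6.94, 7.16 and 6.70 in the same 4. IRT1 model 2 lay between 6.72 and 8.13 in the 18 arrays and at 9.76, 7.83, 9.89 and 9.23 in the 4. The highest FRO2 and IRT1 values of the series thus came from arrays of low correlation, in both cell types and both treatments. Model 1 of IRT1 was among the dimmest 25% of models by mean level.

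The FIT targets did not differ between cell types beyond their error. The average cell type difference was 0.07 for IRT1 model 1, -0.60 for IRT1 model 2 and -0.28 for FRO2, and each 95% interval covered 0. In the 12 arrays of matching marker score and ordinary correlation, IRT1 model 2 lay between 6.72 and 7.62 in epidermis and between 7.42 and 8.13 in cortex. The nitrate differences of IRT1 model 2 were -0.53 in Col0 epidermis, 0.82 in Col0 cortex, -0.48 in atscl26 epidermis and 0.10 in atscl26 cortex. Those of FRO2 were -0.45, 1.05, -0.49 and 0.09 in the same order.

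**Figure D3:**
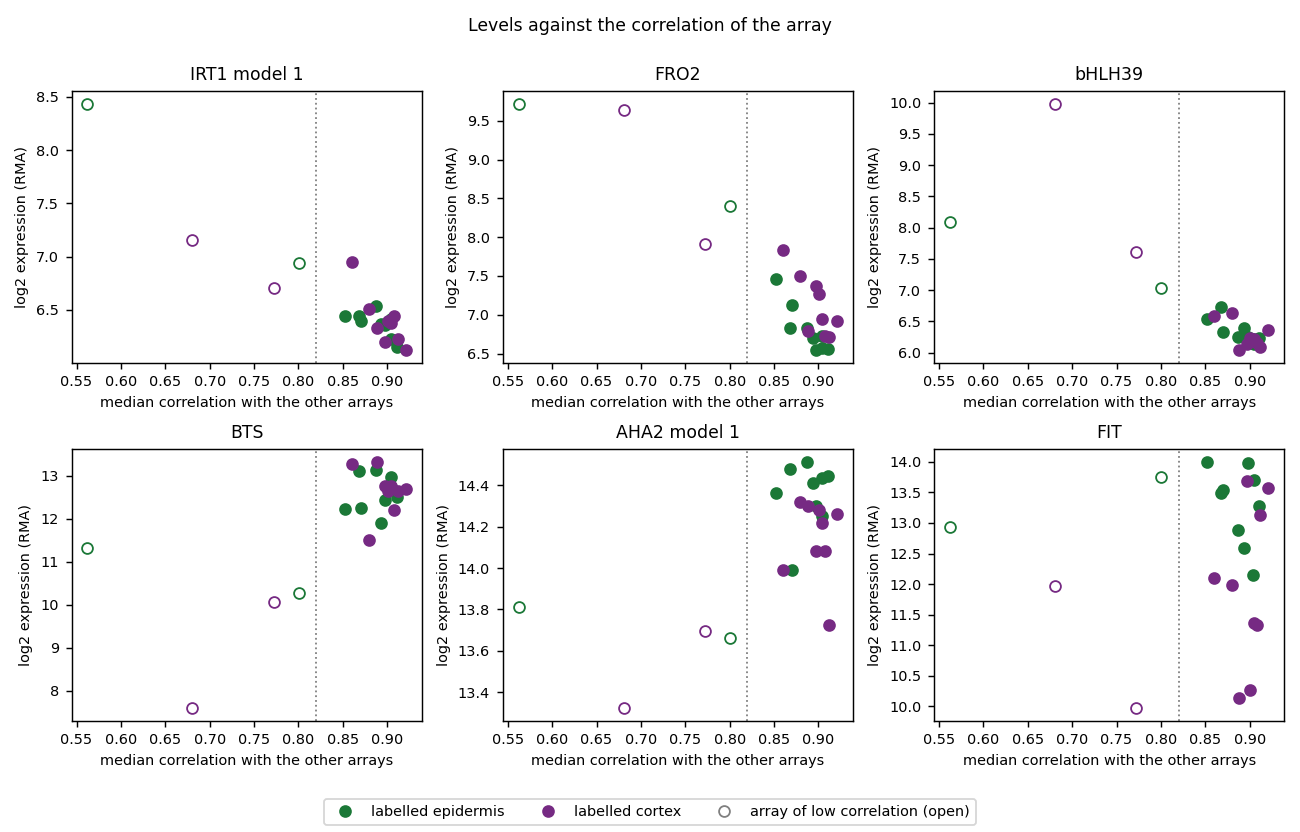
Levels of IRT1 model 1, FRO2, bHLH39, BTS, AHA2 model 1 and FIT (y axes, log2 expression value from RMA) are set against the median correlation of each array with the other arrays (x axes); the dotted line at 0.82 separates the 4 arrays of low correlation (open points). FRO2 and bHLH39 lie above, and BTS and AHA2 model 1 below, all or nearly all of their other values in the open points, while FIT, at 9.97 to 13.75 there, does not.

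The 2 models of AHA2 disagreed. Model 1 was bright and even, between 13.32 and 14.52 over all arrays, with its 3 lowest values of 13.32, 13.66 and 13.69 in arrays of low correlation. Its largest difference among the 12 comparisons was 0.49, between cell types in atscl26 KNO3. Model 2 spanned 6.01 to 12.01. In epidermis, model 2 stood at 8.68, 10.94 and 10.26 in Col0 KCl, at 10.88, 12.01 and 7.44 in Col0 KNO3, at 6.94 and 9.25 in atscl26 KCl, and at 6.01, 6.87 and 7.26 in atscl26 KNO3. Every Col0 epidermis KNO3 array lay above every atscl26 epidermis KNO3 array, and the share of all models with such separation was not counted. In the cortex it lay between 7.02 and 9.66.

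The genotype difference of AHA2 model 2 in epidermis under KNO3 was -3.39 ± 0.97 (limma adjusted p = 0.745), and that of model 1 was 0.10. Without the arrays of low correlation, which takes out the Col0 value of 7.44, the model 2 difference was -4.73 ± 0.81 with an adjusted p of 0.0751. With array weights it was -4.05 with an adjusted p of 0.0267, in a fit where 0.289% of all models passed, and over the other alternatives the adjusted p ran from 0.0751 to 0.9997. Without the 7 arrays nearer the other cell type it was -4.09 ± 1.57 (adjusted p = 0.9997). Beside this difference, cortex markers were higher in arrays labelled atscl26 in 3 of 3 models (median 1.56) and endodermis markers in 11 of 11 (0.31), while non-hair markers were lower in 5 of 6 (-0.45) and root hair markers in 8 of 10 (-0.44). Of the 3 atscl26 arrays, 2 had a marker score nearer the cortex, and the part of the markers in the difference was not tested. The model 2 difference between cell types in Col0 KCl was 2.56 ± 0.97 (adjusted p = 0.845), and its average genotype difference was -1.28 ± 0.51 (adjusted p = 0.806). The genotype by cell type interaction of model 2 was -2.69 ± 1.03 (adjusted p = 0.998). Reading the last number of each identifier as a transcript model is an assumption, not a statement of the submitters.

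FER1, the storage gene, held the smallest p of the 10 loci, in epidermis. Its levels were 11.70, 10.15 and 10.12 in Col0 epidermis KCl and 7.62, 8.76 and 9.05 in Col0 epidermis KNO3. In arrays labelled atscl26 they were 8.58 and 9.24 in epidermis KCl and 10.86, 11.68 and 11.60 in epidermis KNO3. The treatments did not overlap in either genotype, and they stood in opposite order: KNO3 below KCl in Col0 and above it in atscl26. With 2 or 3 arrays in a group such separation can arise by chance, and its share over all models was not counted.

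The nitrate difference of FER1 in epidermis was -2.18 ± 0.57 in Col0, a 4.55-fold ratio (limma adjusted p = 0.693), and 2.47 ± 0.63 in atscl26, a 5.53-fold ratio (adjusted p = 1.0). Within epidermis, the genotype by nitrate interaction was 4.65 ± 0.85, the 4th smallest p of 31524 models, with an adjusted p of 0.280, and 0% of all models passed. This interaction within each cell type was added after the values were seen. Averaged over both cell types, the interaction was 2.47 ± 0.60 (limma adjusted p = 0.9999).

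Between genotypes, FER1 in epidermis was 2.91 ± 0.57 higher in arrays labelled atscl26 under KNO3, a 7.49-fold ratio (limma adjusted p = 0.450), the 5th smallest p of that comparison. Under KCl it was -1.75 ± 0.63 (adjusted p = 0.848), and -1.21 without the 7 arrays nearer the other cell type. In atscl26 epidermis KNO3, replicates 2 and 3, with a marker score nearer the cortex, had array weights of 2.28 and 2.34, and replicate 1 had 1.03. With array weights, the KNO3 difference was 3.27 with a limma adjusted p of 0.0244, in a fit where 0.289% of all models passed. Over the other alternatives it was between 2.38 and 3.19, with adjusted p from 0.0941 to 0.9997.

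In the cortex, FER1 stood at 11.04, 9.96 and 10.56 in Col0 KCl, 10.72 and 11.24 in Col0 KNO3, 10.04, 10.82 and 9.97 in atscl26 KCl, and 11.60, 9.88 and 11.60 in atscl26 KNO3. These groups overlapped, and the interaction within cortex was 0.29 ± 0.85 (adjusted p = 0.9998). The difference of FER1 between cell types (epidermis minus cortex) was -2.50 ± 0.63 in Col0 KNO3 (limma adjusted p = 0.433) and -1.36 ± 0.63 in atscl26 KCl (adjusted p = 1.0). It was 0.14 in Col0 KCl and 0.35 in atscl26 KNO3, and the average was -0.84 ± 0.30 (adjusted p = 0.777), or -1.29 ± 0.35 without the 7 arrays nearer the other cell type (adjusted p = 0.0861). Over the 8 groups, FER1 was highest in atscl26 epidermis KNO3 at 11.38 ± 0.45 (SD, n = 3) and atscl26 cortex KNO3 at 11.03 ± 0.99 (n = 3), which overlap. Col0 cortex KNO3 at 10.98 ± 0.37 (n = 2), Col0 epidermis KCl at 10.66 ± 0.90 (n = 3), Col0 cortex KCl at 10.52 ± 0.54 (n = 3) and atscl26 cortex KCl at 10.28 ± 0.47 (n = 3) followed, each overlapping the next. FER1 was lowest in atscl26 epidermis KCl at 8.91 ± 0.47 (n = 2) and Col0 epidermis KNO3 at 8.47 ± 0.76 (n = 3), which also overlap.

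Between treatments in epidermis, the group means of cortex markers moved with FER1, but not every single array followed. All 3 had a lower mean under KNO3 in Col0 epidermis (median difference -1.81) and a higher one under KNO3 in atscl26 epidermis (median difference 1.97), and 0 of 3 passed in either. Endodermis markers did the same, at -1.09 and 1.47 over 11 models. Stele markers did not: they were lower under KNO3 in 6 of 8 models in Col0 (median -0.77) and in 5 of 8 in atscl26 (median -0.29). The mean level of the cortex markers was 8.49 to 11.71 in Col0 epidermis KCl, 7.90 to 9.74 in Col0 epidermis KNO3, 7.85 to 8.76 in atscl26 epidermis KCl and 8.35 to 11.47 in atscl26 epidermis KNO3. The 3 epidermis arrays of ordinary correlation with a marker score on the cortex side had FER1 at 11.60 to 11.70. Col0 epidermis KCl replicate 2, of low correlation and also on the cortex side, had cortex markers at 11.71 and FER1 at 10.15. In atscl26 epidermis KNO3 replicate 1, cortex markers stood at 8.35 and FER1 at 10.86. The part of these markers and arrays in the FER1 difference was not tested. Without the 7 arrays nearer the other cell type, the nitrate difference was -1.65 ± 0.70 in Col0 epidermis and 1.94 ± 0.75 in atscl26 epidermis (adjusted p = 1.0 in both), with 1 array left in Col0 epidermis KCl and 1 in atscl26 epidermis KNO3. That atscl26 array is the one that the authors' average of Col0 epidermis KCl includes. A further fit left out both arrays that the authors' averages count in another group besides their own. It also left out Col0 epidermis KCl replicate 2, which those averages omit. The nitrate differences in it were -2.44 ± 0.64 in Col0 epidermis and 2.73 ± 0.70 in atscl26 epidermis. In this fit atscl26 epidermis KNO3 kept only replicates 2 and 3, both with a marker score nearer the cortex. Col0 epidermis KCl kept replicate 1, which also has such a score, and replicate 3. In the authors' deposited table the average of FER1 in Col0 epidermis KCl was 10.89, against 10.66 for the mean of the labelled arrays.

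**Figure D4:**
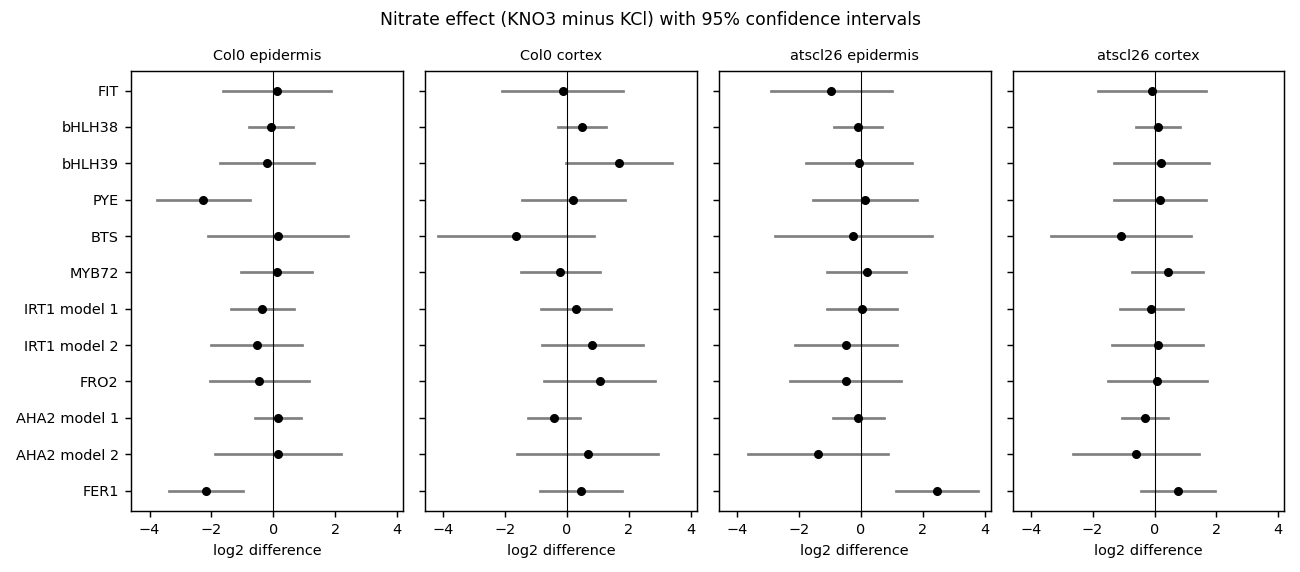
Nitrate difference (x axis, log2 KNO3 minus KCl) of the 12 iron models (y axis) in each genotype and cell type; points are limma estimates and bars their 95% confidence intervals, unadjusted for the number of models. Intervals clear of 0 belong to FER1 (-2.18) and PYE (-2.26) in Col0 epidermis and to FER1 (2.47) in atscl26 epidermis, and none of these passed after adjustment.

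Counted at an unadjusted limma p under 0.05, 2 of the 12 iron models stood out for the nitrate effect in Col0 epidermis (5.43% of all models did), 0 in Col0 cortex (5.08%), 1 in atscl26 epidermis (3.24%) and 0 in atscl26 cortex (2.72%). Between genotypes the counts were 3 in epidermis under KNO3 (5.18%), 1 in epidermis under KCl (4.51%), 0 in cortex under KNO3 (6.15%) and 0 in cortex under KCl (1.3%). For the cell type effect they were 2 in Col0 KCl (5.13%), 2 in Col0 KNO3 (7.85%), 1 in atscl26 KCl (3.41%) and 0 in atscl26 KNO3 (3.7%). Of the average effects, 2 models stood out between cell types (6%), 1 between genotypes (4.84%) and 0 between treatments (2.33%). The interactions gave 1 for genotype by nitrate (2.45%), 0 for cell type by nitrate (4.76%) and 1 for genotype by cell type (3.41%). FER1, FIT, PYE and AHA2 model 2 made up all of these. The median of the 12 differences in each average effect was -0.07 for cell type, -0.11 for genotype and -0.03 for nitrate, beside -0.08, -0.05 and 0.02 over all models.

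**Figure D5:**
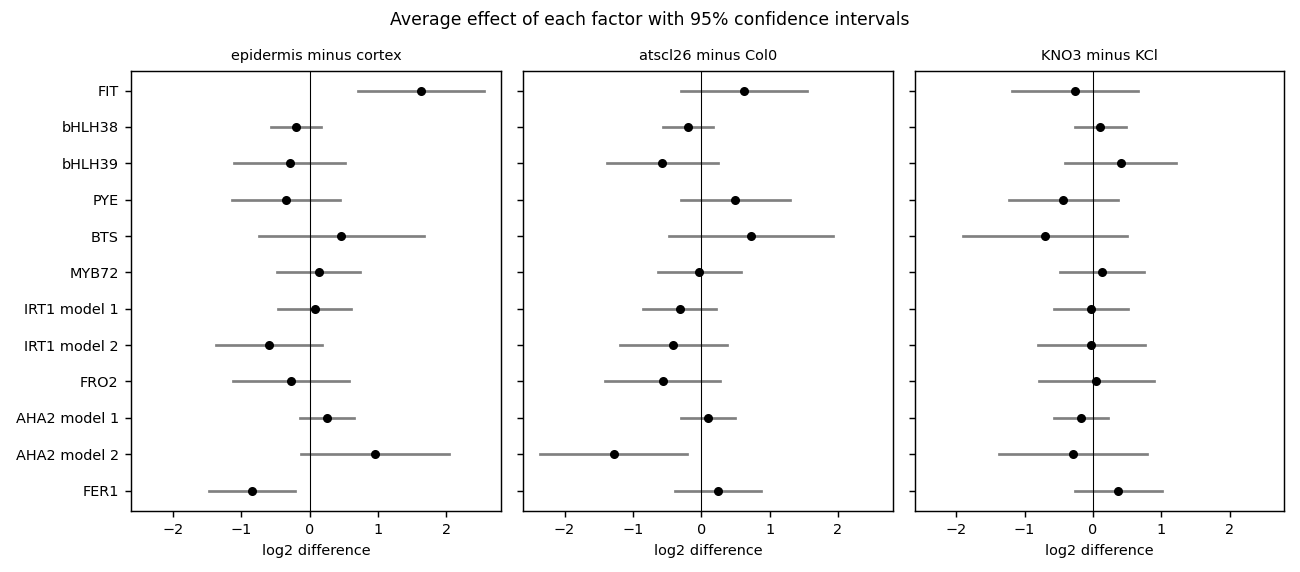
Average difference of each of the 12 iron models (y axis) between cell types, between genotypes and between treatments (x axes, log2 difference); points are limma estimates and bars their 95% confidence intervals, unadjusted for the number of models. FIT (1.63) and FER1 (-0.84) are clear of 0 between cell types and AHA2 model 2 (-1.28) between genotypes, and no model is clear of 0 between treatments.

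The 58 other iron genes listed for the study, with 65 models, gave the same count: 0 passed in each of the 18 comparisons. They are 18 regulators, 12 genes of iron reduction, uptake and proton pumping, 6 of coumarin synthesis and export, 10 of chelation and long distance transport, and 12 of storage and vacuolar transport. In the average nitrate effect 38 models had a higher and 27 a lower mean, with a median of 0.03 beside 0.02 over all models. In the average cell type effect 20 were higher and 45 lower in epidermis, with a median of -0.17 beside -0.08. In the average genotype effect 20 were higher and 45 lower, with a median of -0.11 beside -0.05. Over all models, 53.9% were higher in the average nitrate effect, 40.4% in that of cell type and 44.7% in that of genotype.

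Of these genes, NRAMP3, which exports iron from the vacuole, had the smallest p for the nitrate effect in Col0 epidermis, where its difference was 1.85 ± 0.47 (limma adjusted p = 0.693), opposite in sign to FER1, and 2.50 without the 7 arrays nearer the other cell type. NRAMP3 also differed by 1.85 ± 0.52 between genotypes in epidermis KCl (adjusted p = 0.848). ILR3, a bHLH regulator of the iron deficiency response, had an average nitrate difference of 1.13 ± 0.33 (adjusted p = 1.0), and 0.70 without the arrays of low correlation. AHA7, a proton pump related to AHA2, differed by -3.16 ± 0.92 between epidermis and cortex in atscl26 KNO3 (adjusted p = 0.909), and -2.48 without those 7 arrays. The ferritin genes FER2, FER3 and FER4 ranged over 8.32 to 10.71, 9.86 to 13.11 and 7.71 to 10.46 across arrays, narrower than the 7.62 to 11.70 of FER1.

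Across the 22 arrays, 10 pairs of the 10 loci were compared, using the lowest-numbered model of each. Since 4 arrays stood apart, the pooled values are given only beside those of the other 18. All are a description, since arrays share cell type labels and quality, and the permutations took no account of either. IRT1 and FRO2 had a Pearson r of 0.864 over 22 arrays (Spearman rho 0.665; permutation p = 1e-05, the smallest that 100000 resamples can give; adjusted p = 0.0001 over 10 pairs). Without the 2 arrays farthest from the median of IRT1, r was 0.759. Within the 18 arrays it was 0.568 (rho 0.393; permutation p = 0.0141, adjusted p = 0.141), so the correlation was smaller and did not pass after adjustment. With the median correlation of the array itself, IRT1 had r = -0.937 and FRO2 r = -0.927 over 22 arrays, and -0.677 and -0.624 within the 18. bHLH38 and bHLH39 had r = 0.876 over 22 arrays (permutation p = 0.00028, adjusted p = 0.0014) and 0.517 without the 2 farthest arrays. Their Spearman rho of 0.494 did not pass (permutation p = 0.0204, adjusted p = 0.102). Within the 18 arrays r was 0.341 (permutation p = 0.167, adjusted p = 0.66).

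No correlation of FIT with its targets or partners passed: within the 18 arrays r was -0.283 with IRT1, -0.0938 with FRO2, -0.211 with bHLH38 and 0.237 with bHLH39, with a smallest permutation p of 0.253. AHA2 and IRT1 had r = -0.530 over 22 arrays (adjusted permutation p = 0.055) and -0.0981 within the 18.

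The models most like each of the 10 loci over 22 arrays are given as a description, since the arrays share quality and cell makeup. FIT was nearest to AT5G59930 (r = 0.883), SKS6 (0.882) and KAT3 (0.859), a subunit of potassium channels, and within the 18 arrays the values were 0.870, 0.951 and 0.887. FER1 was nearest to AHP1 (0.826), a phosphotransfer protein of cytokinin signalling, ASY1 (0.816) and DAC (0.785), with 0.834, 0.802 and 0.783 within the 18. PYE was nearest to AT2G31740 (0.758), ZR3 (0.749) and AT2G19610 (0.727), with 0.612, 0.672 and 0.860 within the 18. AHA2 was nearest to D6PKL1 (0.897), and MYB72 to FLOT1 (0.825), with 0.738 and 0.391 within the 18. For FRO2 (AT3G58420, 0.989), IRT1 (VAMP712, 0.980), bHLH39 (AT1G48750, 0.985), BTS (AT2G47330, 0.928) and bHLH38 (AT5G01080, 0.922) the nearest model also followed the 4 arrays of low correlation, and within the 18 the values were 0.960, 0.825, 0.680, 0.289 and 0.509.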

How the data were processed

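The authors deposited log2 values per transcript model. RMA is the tool named for them, per the submitters' processing notes; its settings are not known here. Per the labels, arrays were designed on TAIR10 and RNA was amplified before Cy3 labelling. A further deposited table, of group averages on the log2 scale, entered no test. The values were fitted as deposited with limma 3.58.1 (R 4.3.3), 1 mean per group over 22 arrays (14 residual degrees of freedom), with eBayes and Benjamini-Hochberg adjustment over all 31524 models, threshold 0.05. The fit was tested on simulated data. Precision is limited by the number of arrays. Titles call the arrays of a group biological replicates without naming separate cultures, so p-values measure only the spread between them, which may be partly technical. The highest correlation of any pair of arrays was 0.965, and 0 pairs were identical.

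Named genes are all 12 models, of each other iron list up to 3 models with the smallest p, and the 3 models most like each locus. The members and lists were chosen with earlier results of these data known. Names came from a TAIR10.1 gene table, which held the locus of 30935 models and gave a name to 46 of the 58 other iron genes; the rest are named by locus. Correlations were computed in Python 3.11.15 with numpy 2.4.6. Alternatives were quantile normalization, median centring, an intensity trend with robust prior, array weights, leaving out the dimmest 25% of models (which kept 9 of the 12), a replicate block, the mean over models of a locus, only the groups compared, and leaving out arrays: each in turn, the 4 of low correlation (under 0.82), and the 7 nearer the other cell type. A further 3 were chosen after seeing the data. They were a fit without both sets and a fit without the arrays that the authors' averages omit or also count in another group. The genotype by nitrate interaction within each cell type was the last.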

Additional observations from a re-analysis of the deposited data

How the results depend on the processing

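None of the 12 iron models passed in any of the 18 comparisons under quantile normalization, median centring or the intensity trend. The same held without the 4 arrays of low correlation. None passed with the filter on dim models, which left out bHLH38, bHLH39 and IRT1 model 1. With the mean over models, which tests loci in place of models, none passed either. The fit of only the groups compared covered the comparisons within a genotype, cell type or treatment. It was not run for the averages or interactions, and no iron model passed in it. Estimation of the array weights did not fully converge. With them, 2 iron models passed for the genotype effect in epidermis KNO3 (AHA2 model 2 and FER1), beside 0.289% of all models. For the cell type effect in Col0 KCl 3 passed, beside 11.1% of all models. They were FIT at 2.60 (limma adjusted p = 0.0119), AHA2 model 2 at 2.70 (adjusted p = 0.00733) and PYE at 1.71 (adjusted p = 0.0472). The weights of Col0 epidermis KCl replicates 1, 2 and 3 were 0.54, 0.08 and 4.24. Replicate 3 thus counted most for this group in every weighted comparison. Without the 7 arrays nearer the other cell type, 1 model, FIT, passed in the average cell type effect. Leaving out single arrays gave 0 to 2 models for the nitrate effect in Col0 cortex, the genotype effect in cortex KNO3 and the cell type effect in Col0 KNO3, and 0 to 0 in the other 15. The 2 models were BTS and bHLH39 each time, and came when Col0 cortex KNO3 replicate 2 was left out, which leaves a lone array of low correlation that is assumed to vary like the other groups; 2.8%, 2.09% and 2.62% of all models passed there. Without the arrays of low correlation, 0 of the 10 correlations passed in place of 2; as deviations from group means 3 did, with AHA2 and IRT1 at -0.633 (adjusted permutation p = 0.00647). The correlation of FIT and bHLH39 turned from -0.121 to 0.237 without the arrays of low correlation and to 0.0278 as deviations, and that of FIT and FRO2 from -0.0773 to 0.0286 as deviations; none of these passed. Of the other iron genes, 4 models passed with array weights for the nitrate effect in Col0 epidermis, beside 1.65% of all models. For the genotype effect in epidermis KCl 2 passed, beside 0.53%. NRAMP3 passed in both, at 2.19 (limma adjusted p = 0.0165) and 2.32 (adjusted p = 0.0395). The weighted fits also gave 3 for the nitrate effect in atscl26 cortex (3.05%) and 6 for the cell type effect in Col0 KCl (11.1%). The cause of these shifts was not tested.

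With a replicate block, 0 models passed in each of the 18 comparisons, and FIT differed by 1.63 between cell types (adjusted p = 0.840). Arrays of 1 replicate number showed no sign of pairing in the median correlation of their deviations. It was -0.0084 over 71 same-numbered pairs, against 0.0043 over 140 others. Such a median cannot exclude a pairing of some arrays. Without both sets of doubtful arrays, atscl26 cortex KNO3 had no array and its comparisons could not be fitted.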
